A study of Rattus norvegicus with 8 samples.

Results

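LOC120097291, LOC120095407, LOC120098346, LOC120093427 and LOC120096085 are rat genes that RefSeq classes as small nuclear RNAs (snRNAs) and that carry only a locus number as a name. They were taken by name from the deposited table, 5 of its 29541 genes. LOC120098346, LOC120093427 and LOC120096085 stand on the study's published list of RNAs higher after exercise. Their published group means are higher than their exercised means over all libraries here, and are reached once the exercised library lettered a is dropped. The published fold change of LOC120096085 is far above the ratio of 2.76 found here without that library and with the sedentary library lettered b kept. Which libraries the published values rest on is not stated. LOC120097291 and LOC120095407 were added because they were among the most abundant or most shifted RNAs of these libraries. The levels and group contrasts below therefore chose the genes, so they are given as a description with no test. Of 962 snRNA genes in the table, 855 had LOC names, 213 had any read, and 77 averaged 1 TPM or more (TPM, reads per gene length, scaled to sum to 1000000 in each library). All 5 genes were among these 77.

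The series holds 4 libraries of plasma exosome RNA from exercised rats and 4 from sedentary rats, all male Sprague Dawley, lettered a to d in each group. Exercised rats ran on a motorised treadmill at a moderate pace on most days of the week for a month, and blood was taken soon after the last run. Sedentary rats stayed in the same room without running, and the labels give no age for either group. Neither group of the exosome cohort had received alpha-synuclein fibrils, which the study injected in other rats to model Parkinson's disease. Vesicles were collected from plasma with a precipitation reagent, a method that can also bring down particles other than exosomes, and the unfragmented RNA was made into stranded total RNA libraries from which ribosomal cDNA was depleted. Whether a library came from 1 rat is not in the labels, and the study's text is not uniform on the number of rats per group, so n counts libraries and tests here measure the spread between libraries.

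snRNAs are short RNAs of the nucleus that, bound to Sm or LSm proteins, form the core of the spliceosome. U1 pairs with the 5′ splice site, U2 with the branch point, and U4, U5 and U6 join as a tri-snRNP, while U11 and U12 serve the minor spliceosome. Mammalian genomes carry many near-identical copies and pseudogenes of each snRNA, so a short read from one copy can match others. No source used here names a family for the 5 genes, so they are grouped by RefSeq length only. LOC120097291, LOC120095407 and LOC120098346 are each 164 nt long, as are ENSRNOG00000053739, Rnvu1-6 and Rnu1-24, which the table or RefSeq names as U1 or variant U1 genes. LOC120093427 is 134 nt long and LOC120096085 is 141 nt long.

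In RefSeq assembly GRCr8 the genes lie on different chromosomes, LOC120097291 on 15, LOC120095407 on 10, LOC120098346 on 18, LOC120093427 on 6 and LOC120096085 on 12. LOC120097291 lies within the span of the lncRNA LOC134482092. LOC120095407 lies within that of the lncRNA LOC134480877, between Aoc3, an amine oxidase, and G6pc1, a glucose-6-phosphatase. LOC120098346 overlaps no gene and precedes Ftmt, the mitochondrial ferritin. LOC120093427 lies in Syndig1l, whose own level was at most 0.0859 TPM in every library. LOC120096085 lies in Sirt4, a mitochondrial sirtuin listed at 0 TPM in all 8 libraries, next to the equally long snRNA gene LOC120096084.

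The libraries held 10020804 to 31357153 reads, as the smallest whole counts that fit the steps of the TPM values, so these totals can be too low. Very few RNAs took nearly all: the top 10 held 98.1 to 99.2% of all TPM. All snRNA genes together took 0.415, 0.645, 1.20 and 0.484% of TPM in exercised a to d, against 0.142, 0.421, 0.136 and 0.735% in sedentary a to d. Platelet markers summed to 6.22 to 12.9 TPM in exercised libraries and 0.822 to 3.21 TPM in sedentary libraries, with 1 of the 7 listed markers, Gp1bb, at 0 in all libraries. Erythroid markers, 5 of 8 in the table, summed to 29.8 to 133 and 9.46 to 70.3 TPM. Hepatocyte markers, all 7 with reads, summed to 0.393 to 48.1 and 11.7 to 69.5 TPM, and neutrophil markers, 7 of 8 with reads and Elane at 0, to 0 to 83.7 and 0 to 6.57 TPM, again exercised before sedentary. The mRNAs of exosome marker proteins (7 of 7 with reads) summed to no more than 1.41 TPM in any library. Cd63, whose protein is a tetraspanin of exosome membranes, averaged 0.203 TPM over the 8 libraries. These are mRNA levels and do not measure the proteins. By immunoblot the study detected CD63 protein in exosomes of both groups, but not CD9 or CD81. Whether these cell type signals have a part in the snRNA levels was not tested, and in bulk vesicle RNA fewer source cells and less RNA per cell cannot be told apart.

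LOC120097291 was the most abundant snRNA gene, ranking 9 among all genes by mean TPM. Its level was 1073, 2548, 6092 and 2054 TPM in exercised a to d, against 610, 1483, 355 and 3170 TPM in sedentary a to d. These values rested on 1162 to 13575 reads in exercised libraries and 1277 to 9242 reads in sedentary libraries. The groups overlapped: exercised c was the highest library, but sedentary d exceeded the other 3 exercised libraries. The means were 2942 ± 2188 TPM in exercised and 1404 ± 1273 TPM in sedentary rats (SD, n = 4 each), a ratio of 2.09 that was 1.35 without exercised c and 3.61 without sedentary d. Scaled without the 10 most abundant RNAs, which include this gene, the ratio was 1.52. On log2(TPM + 1) the difference was 1.27 (SE 0.75), and 0.64 in that scaling.

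LOC120098346 was the second most abundant of the 3 members of 164 nt, with rank 6 among snRNA genes. Its level was 0, 567, 581 and 212 TPM in exercised a to d and 54.5, 264, 93.3 and 194 TPM in sedentary a to d. Exercised a held no read of it, where 3 reads would have given 2.77 TPM, while exercised b and c held 1352 and 1294 reads. Thus the highest and the lowest library were both exercised. The means were 340 ± 284 TPM and 151 ± 95.3 TPM in exercised and sedentary rats (SD, n = 4 each), a ratio of 2.25, yet on log2(TPM + 1) the difference was -0.49 (SE 1.85). The sign turned on the empty library and on the scale: the log2 difference was 1.69 without exercised a and 0.26 with a pseudocount of 10 TPM.

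Most RNAs of similar abundance had reads in all libraries. Of 131 genes averaging 10 TPM or more, 18 were at 0 in 1 or more libraries, and of the 25 snRNA genes among them, 4 were. Exercised a was the only library without reads for 4 of the 131, namely LOC120098346, LOC120094884, LOC120100233 and LOC120101197. Exercised a was also the library with the fewest reads as recovered here.

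LOC120095407 was lower and more uneven, with rank 11 among snRNA genes. Its level was 116, 244, 54.3 and 60.4 TPM in exercised a to d, against 15.9, 0.470, 44.7 and 0.686 TPM in sedentary a to d. In reads these were 126, 582, 121 and 135 in exercised libraries and 52, 1, 161 and 2 in sedentary libraries. Every exercised library exceeded every sedentary one, though sedentary c came close to exercised c. The means were 119 ± 88.1 TPM and 15.5 ± 20.8 TPM in exercised and sedentary rats (SD, n = 4 each), a ratio of 7.69, which became 4.98 on leaving out exercised b and 20.9 on leaving out sedentary c. The log2 difference was 3.91 (SE 1.12). Among all 508 genes averaging 1 TPM or more, the groups did not overlap for 5.91%, or 5.31% counting only genes higher in exercised rats, and for 2.78% of the 72 other snRNA genes, and LOC120095407 was the only 1 of the 5 members; since that contrast chose the gene, nothing is read from it. Scaled without the 10 most abundant RNAs, its groups overlapped, with sedentary c above exercised c and d, and the ratio was 3.54.

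LOC120093427 had reads in a single library. It was at 27.9 TPM, or 51 reads, in exercised d and at 0 TPM in exercised a, b and c and in all 4 sedentary libraries. Its exercised mean, 6.98 TPM, was at least 5.45-fold higher than a sedentary group with each library set at 3 reads, and without exercised d no read was left in either group. LOC120096085 was at 0, 0, 12.005 and 8.33 TPM in exercised a to d, against 0, 9.84, 0 and 0 TPM in sedentary a to d. These values came from 23 and 16 reads in exercised c and d and 18 reads in sedentary b, so that each group had libraries with and without it. Its ratio of means was 2.07, and 1.13 without exercised c, while without sedentary b no sedentary read was left. The log2 difference was 0.87 (SE 1.10), 1.73 without sedentary b and 2.31 without sedentary b and exercised a.

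Having most of its signal in a single library, as LOC120093427 did, was seen for 17.5% of all 508 tested genes and 22.2% of the 72 other snRNA genes. A level of 0 in 1 or more libraries, as for LOC120098346, LOC120093427 and LOC120096085, was seen for 39.4% of the 508 and 66.7% of the 72. No gene of the 508 passed an adjusted p of 0.05 in limma's moderated linear model (0.0%), while at an unadjusted p under 0.05 the higher genes numbered 43 (8.46%) and the lower ones 11 (2.17%). The median log2 difference was 0.67 for the other 72 snRNA genes and 0.40 for all 508 genes. It was 1.21 for the 5 members, which this contrast helped to choose, so nothing is read from their higher value. Scaled again without the 10 most abundant RNAs, the median of all genes was -0.05.

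**Figure D1:**
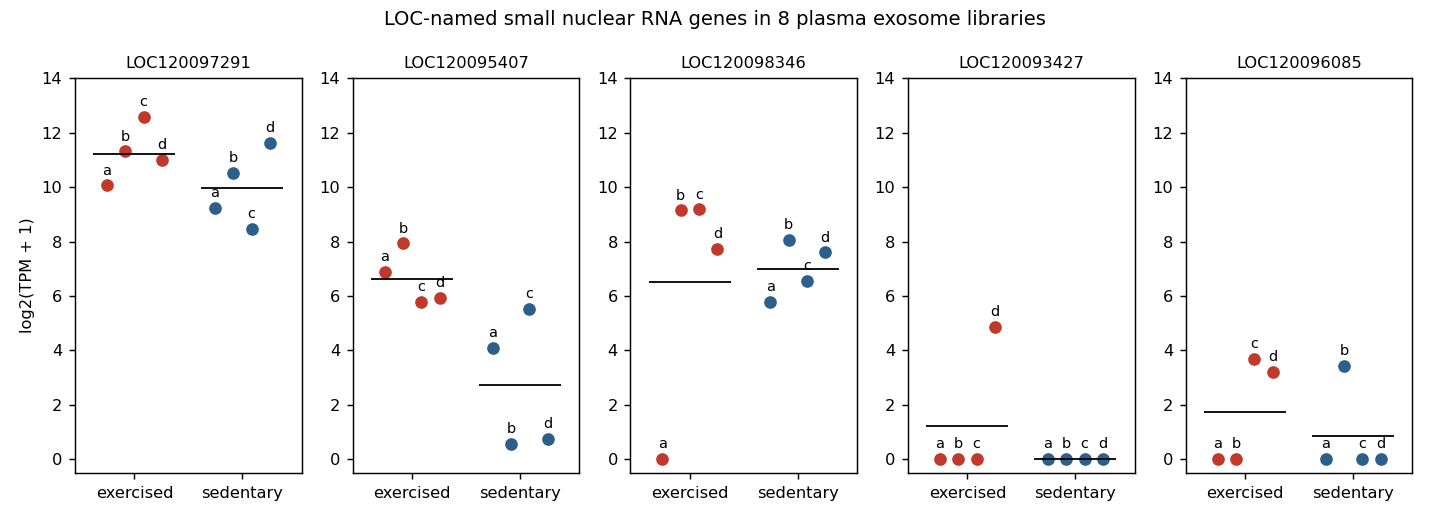
Level of each gene in every library as log2(TPM + 1), exercised libraries left in red and sedentary libraries right in blue, lettered a to d, with a bar at the mean of 4. In TPM as deposited LOC120097291 overlapped between groups, LOC120095407 did not, LOC120098346 was empty in exercised a only, and LOC120093427 was present in exercised d only.

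The 3 members of 164 nt were next compared with the other genes of their length, to ask whether a high value in one went with a low value in another, as copies that share reads would show. The table listed 33 snRNA genes of 164 nt, 27 with reads and 20 averaging 1 TPM or more. Together they summed to 1815, 4023, 8198 and 2996 TPM in exercised a to d and 882, 2376, 592 and 4829 TPM in sedentary a to d. LOC120097291 made up 59.1 to 74.3% of this sum in every library, the lowest share being 59.1% in exercised a (95% exact binomial interval 56.9 to 61.3%) and the highest 74.3% in exercised c (73.7 to 74.9%). Because lengths are equal, these shares are also shares of reads. The intervals here and below cover counting error only.

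Within this sum the other members changed places between libraries. LOC120098346 made up 14.1% in exercised b and 15.8% in sedentary c (95% exact binomial interval 14.2 to 17.4%), but 0% in exercised a, where 0 of 1966 reads allows at most 0.187% by the same interval. LOC120095407 made up 6.41 and 6.07% in exercised a and b and 7.56% in sedentary c, but 0.0198% in sedentary b (0.000501 to 0.110%) and 0.0142% in sedentary d (0.00172 to 0.0513%). Sedentary b and d held 5058 and 14078 reads of this length class, more than the 2131 of sedentary c. Sedentary c had high shares of both genes.

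LOC120095385, also 164 nt and on chromosome 10 like LOC120095407, was uneven in the same manner. It was at 217, 0, 2.69 and 71.6 TPM in exercised a to d and at 0, 0, 0 and 24.7 TPM in sedentary a to d. In exercised a it made up 11.95% of the 164 nt sum (10.6 to 13.5%), the library in which LOC120098346 and LOC120094884 (chromosome 9) had none. Rnvu1-6, a variant U1 gene by name, was at 107, 141, 335 and 133 TPM in exercised a to d and 58.5, 208, 0.278 and 464 TPM in sedentary a to d. Its single read in sedentary c stood in a library where LOC120098346 and LOC120095407 had their largest shares.

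**Figure D2:**
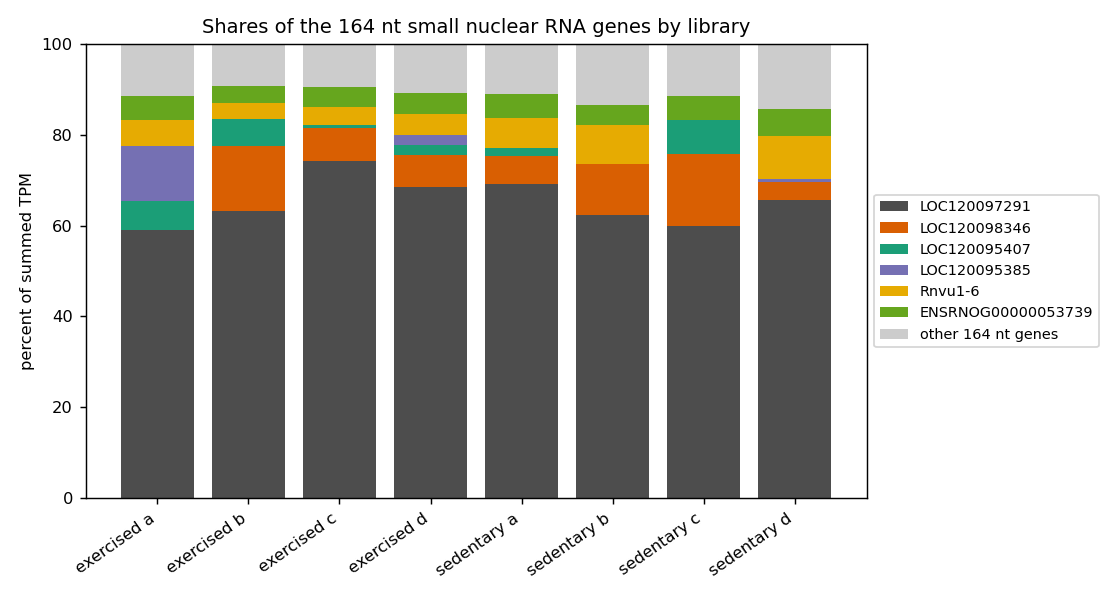
Share of the summed TPM of all 164 nt snRNA genes by library, exercised a to d left of sedentary a to d, with colours for named genes and grey for the rest. LOC120097291 held 59.1 to 74.3% throughout, while LOC120098346 was missing in exercised a, LOC120095407 was nearly missing in sedentary b and d, and Rnvu1-6 was nearly missing in sedentary c.

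Expressed as a percentage of LOC120097291 in the same library, LOC120098346 was at 0, 22.3, 9.53 and 10.3% in exercised a to d and 8.94, 17.8, 26.3 and 6.11% in sedentary a to d. LOC120095407 was at 10.8, 9.58, 0.891 and 2.94% in exercised a to d, against 2.61, 0.0317, 12.6 and 0.0216% in sedentary a to d. On this measure the groups of LOC120095407 overlapped, and the ratio of its group means was 1.59. Added together the pair came to 10.8, 31.8, 10.4 and 13.3% in exercised a to d and 11.5, 17.8, 38.9 and 6.14% in sedentary a to d. The sum still varied 6.34-fold between libraries. It covers only 2 of the 27 genes of this length with reads, and whether copies share reads was not tested.

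By contrast, several genes of the same length followed LOC120097291 closely. The SD over 8 libraries of the log2 ratio to LOC120097291 was 0.26 for LOC120102657, 0.27 for ENSRNOG00000053739, 0.31 for LOC120100156, 0.33 for LOC120093346 and 0.38 for LOC120098443. ENSRNOG00000053739, a U1 gene by name, stayed at 5.76 to 9.05% of LOC120097291. The same SD was 2.61 for LOC120098346, 3.06 for LOC120095407 and 3.16 for LOC120095385, the 3 largest of 19 genes, followed by 2.02 for LOC120094884 and 1.72 for Rnvu1-6. For LOC120098346 this spread was mostly that of the empty exercised a, its SD being 3.61 over exercised and 0.95 over sedentary libraries. For LOC120095407 it was 1.68 over exercised and 3.80 over sedentary libraries. The members were chosen with these values known, and adding 1 TPM before the log holds down the SD of weak genes. The rank among the 19 genes is therefore a description only.

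**Figure D3:**
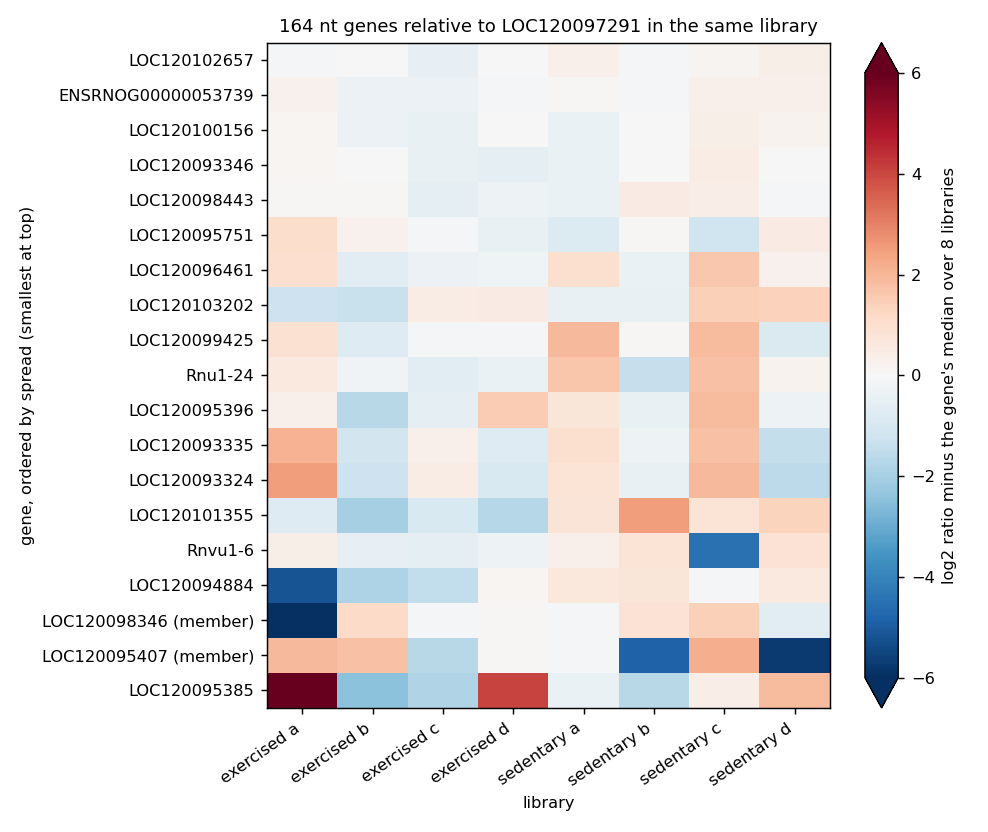
Each 164 nt gene averaging 1 TPM or more (down the page, smallest spread at the top) in each library (exercised left, sedentary right), as the log2 ratio to LOC120097291 minus the gene's median ratio over 8 libraries; colours are cut at 6 in both directions. The top 5 genes keep a steady ratio, with SDs of 0.26 to 0.38. The bottom 3 swing between libraries, with SDs of 2.61 to 3.16, and 2 of them are members, chosen with such values known.

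Across all 8 libraries no pair of members showed a relation that passed adjustment over the 10 pairs. The test pooled both groups, and the group contrast had helped to choose the members. A shared group shift can therefore hide a negative relation in it, and r centred on the group means was not tested. For LOC120095407 and LOC120098346, Pearson's r on log2(TPM + 1) was -0.20 (exact permutation p = 0.644, adjusted p = 0.815, n = 8) and Spearman's rho was 0.071 (exact permutation p = 0.882, adjusted p = 1). Without the 2 libraries farthest from the median of LOC120095407, sedentary b and d, r was 0.0067, and after centring on the group means it was -0.21. With TPM not put on a log scale r was 0.45, and over the shares of the 164 nt sum it was 0.30 (exact permutation p = 0.449), so even the sign was not stable. A library low in one gene was in some cases high in the other (exercised a, sedentary b), but exercised b and sedentary c were high in both relative to LOC120097291.

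LOC120097291 and LOC120098346 had r of 0.47 (exact permutation p = 0.252, adjusted p = 0.815) and rho of 0.74 (exact permutation p = 0.0458, adjusted p = 0.387), and r was 0.54 without sedentary c and exercised c, the farthest from the median of LOC120097291, and 0.61 after centring. For LOC120097291 and LOC120095407 r was -0.035 (exact permutation p = 0.933, adjusted p = 0.933) and rho was 0.12 (exact permutation p = 0.793, adjusted p = 1), with r of -0.09 without the same 2 libraries and -0.78 after centring on the group means. Within the groups, the highest library of LOC120097291 was the lowest of LOC120095407 in exercised rats (c) and the second lowest in sedentary rats (d), but exercised b was the highest of LOC120095407 and the second highest of LOC120097291. The other 7 pairs involve LOC120093427 or LOC120096085, which were at 0 in 7 and 5 of the 8 libraries, and their r ran from -0.18 to 0.50 with adjusted p of 0.815 to 0.933 by the same exact permutation test, while rho ran from -0.19 to 0.68 with adjusted p of 0.387 to 1.

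**Figure D4:**
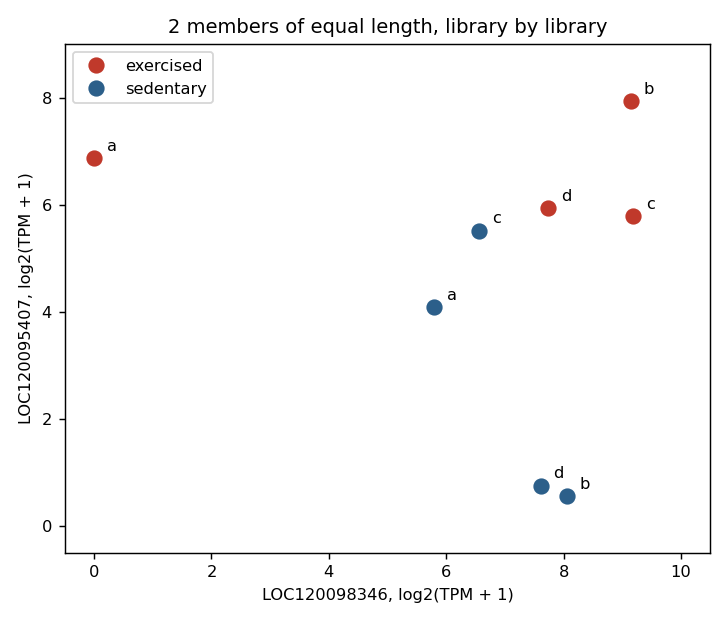
LOC120095407 against LOC120098346, both as log2(TPM + 1), one point per library with its letter, exercised in red and sedentary in blue. Exercised a is high in LOC120095407 with no LOC120098346, sedentary b and d are the reverse, and the other 5 libraries run from sedentary a, low in both, to exercised b, high in both, with r of -0.20 over all 8.

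LOC120093427 was compared in the same way with the 9 snRNA genes of 134 nt, of which 8 had reads. LOC120102644 and LOC120103286 dominated this class and were nearly equal in every library, LOC120103286 lying at 93.9 to 101% of LOC120102644. LOC120102644 was at 425, 829, 1061 and 511 TPM in exercised a to d, against 106, 452, 244 and 676 TPM in sedentary a to d. LOC120094898, another gene of that length, was at 665, 209, 429 and 13.1 TPM in exercised a to d and 105, 453, 11.9 and 374 TPM in sedentary a to d. It ranged from 2.57 to 156% of LOC120102644 and was lowest, on that measure, in exercised d, the only library with LOC120093427.

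The 27.9 TPM of LOC120093427 in exercised d amounted to 5.46% of LOC120102644 and 2.61% of the 134 nt reads (95% exact binomial interval 1.95 to 3.42%). With LOC120094898 it summed to 41.1 TPM there, still below the 209 to 665 TPM of LOC120094898 in the other exercised libraries. Sedentary c, where LOC120094898 was at 11.9 TPM, had no read of LOC120093427 among 1474 of the class, which allows at most 0.250%. A low LOC120094898 therefore went with reads of LOC120093427 in 1 of 2 libraries.

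**Figure D5:**
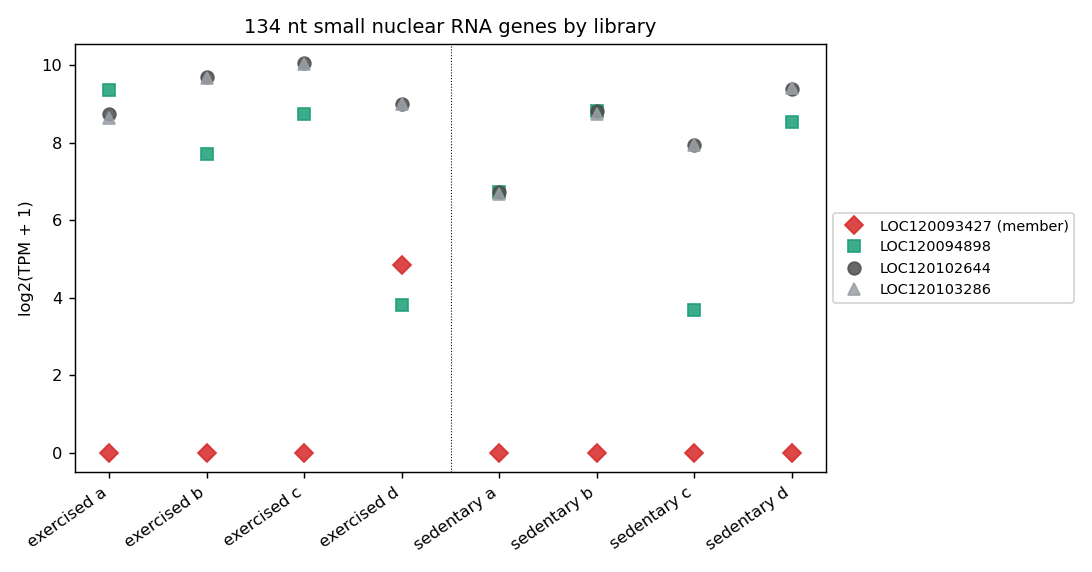
LOC120093427 and the 3 most abundant other snRNA genes of 134 nt in each library as log2(TPM + 1), exercised a to d left of the dotted line and sedentary a to d right of it. LOC120102644 and LOC120103286 overlie each other, LOC120094898 drops to 13.1 TPM in exercised d and 11.9 TPM in sedentary c, and LOC120093427 appears in exercised d alone.

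For LOC120096085 the neighbouring gene LOC120096084, of equal length, gave the comparison. LOC120096084 was at 0, 0, 0 and 2.08 TPM in exercised a to d, against 9.97, 2.19, 0 and 0 TPM in sedentary a to d. Sedentary a had 28 reads of LOC120096084 and none of LOC120096085, while exercised c had 23 reads of LOC120096085 and none of LOC120096084. Exercised d (16 and 4 reads) and sedentary b (18 and 4 reads) had both. All 141 nt genes together held at most 28 reads in a library, so these values rest on few reads.

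The genes that the members' choice did not touch gave tests of their own. Summed TPM of 164 nt genes without the members was 858 ± 409 in exercised and 599 ± 621 in sedentary rats (SD, n = 4 each), a ratio of 1.43 (two-sided exact permutation p = 0.457, adjusted p = 0.457 over the 3 lengths). The 134 nt genes without LOC120093427 summed to 1738 ± 638 TPM and 970 ± 675 TPM in exercised and sedentary rats, a ratio of 1.79 (exact permutation p = 0.171, adjusted p = 0.457). The 141 nt genes without LOC120096085 summed to 0.789 ± 0.9996 TPM and 3.45 ± 4.71 TPM (exact permutation p = 0.429, adjusted p = 0.457). Families were taken from gene names in the table only, so LOC-named copies are in none of them. Genes named as U1, 19 with reads, summed to 531 ± 311 TPM in exercised and 407 ± 426 TPM in sedentary rats (exact permutation p = 0.6, adjusted p = 1 over 6 families). The sign of this difference turned without exercised c or without the 10 most abundant RNAs in the scaling. Genes named as U6, also 19 with reads, summed to 35.8 ± 14.6 TPM and 13.8 ± 4.62 TPM in exercised and sedentary rats, higher in 4 of 4 exercised libraries than in any sedentary one (exact permutation p = 0.0286, the smallest that 70 assignments allow for 4 against 4, adjusted p = 0.171). Scaled without the 10 most abundant RNAs, the U6-named difference was 12.9 TPM, and 1 of 4 exercised libraries exceeded every sedentary one. The exact permutation p was then 0.286 (adjusted p = 1). Genes named as U2, U4, U5 and U11 had reads in too few libraries for a small p. With them among the 6 families, none could reach an adjusted p of 0.05, so the adjusted values cannot decide on U6.

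The genes whose pattern over the 8 libraries was most like that of each member were then listed by r on log2(TPM + 1), among 507 others and as a description. This r pools both groups, whose contrast helped to choose the members, so a shared group shift raises it. It was not centred on the group means. For LOC120097291 the genes listed were ENSRNOG00000053739 (r = 0.98), LOC120102657 (r = 0.98) and U1_25 (r = 0.98), 3 genes that are of 164 nt or named as U1. For LOC120098346 they were the snoRNA genes LOC120100233 (r = 0.98) and LOC120103239 (r = 0.93) and the snRNA gene LOC120102001 (r = 0.89), each of which was also at 0 TPM in exercised a. LOC120100233 was otherwise abundant, at 1043, 864 and 554 TPM in exercised b to d and 263, 833, 363 and 539 TPM in sedentary a to d. Its empty value stood in the same library as that of LOC120098346.

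For LOC120095407 they were Snora81_1 (r = 0.94), by name a box H/ACA snoRNA that guides pseudouridylation of ribosomal RNA, LOC120100137 (r = 0.84) and the histone gene Hist1h2anl2 (r = 0.82). Snora81_1 was at 85.9, 79.5, 40.3 and 40.7 TPM in exercised a to d, against 9.50, 0, 4.31 and 0 TPM in sedentary a to d, and was empty in the same 2 sedentary libraries in which LOC120095407 had 1 or 2 reads. For LOC120093427 they were LOC120103378 (r = 0.89), ENSRNOG00000067866 (r = 0.86) and LOC120096073 (r = 0.85), and for LOC120096085 LOC120100124 (r = 0.94), LOC120095786 (r = 0.90) and the U6-named gene ENSRNOG00000062560 (r = 0.90). The genes listed for these last 2 members averaged 1.06 to 2.25 TPM over the libraries, so that these likenesses rest largely on which libraries are at 0.

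The mRNAs of proteins that bind, build or recycle snRNPs were scarce in the same libraries. Of 73 such genes listed, 69 were in the table and 64 had reads, but only Luc7l3 and Snrnp70 averaged 1 TPM or more. Luc7l3, a U1-associated splicing factor, was at 18.6, 15.2, 7.35 and 4.93 TPM in exercised a to d, against 0.602, 2.73, 4.85 and 6.76 TPM in sedentary a to d, a log2 difference of 1.47 (SE 0.60, limma adjusted p = 0.406, n = 4 each). Snrnp70, the U1-70K protein, was at 2.88, 2.71, 1.60 and 1.90 TPM in exercised a to d and 0.503, 1.09, 1.31 and 2.06 TPM in sedentary a to d, a log2 difference of 0.57 (SE 0.35, limma adjusted p = 0.575). Neither passed adjustment over all 508 genes, and the groups of both overlapped. Of the 2, 1 (Luc7l3) was higher at an unadjusted limma p under 0.05, against 43 of all 508 genes (8.46%). The Sm core proteins, which ring most snRNAs, summed to 0.299 to 1.78 TPM in exercised libraries and 0.0853 to 0.556 TPM in sedentary libraries.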

How the data were processed

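The authors deposited 1 table of TPM, aligned by the submitters' processing notes to mRatBN7.2; the aligner, the counter and any rule for reads matching several copies were not given in the sources used here. The 5 members and all lists were chosen with earlier results of these data known. Names (23830 of 29541) were matched to RefSeq GRCr8; builds differ, so no coordinates are printed. Whole reads of snRNA genes were recovered from the TPM steps with RefSeq lengths (tolerance 1e-06). Of snRNA values, 96.9 to 100% per library came out whole. For the library totals, each gene was given the smallest length that made its reads whole in every library. That 71856 of 71860 values were then whole follows from this choice. The totals can be too low where a gene's reads and length share a factor. No count model was run. A group without reads was set at 3 reads. The 508 genes averaging 1 TPM or more were fitted with limma (version 3.58.1, R version 4.3.3; eBayes with trend, Benjamini-Hochberg) on the scale log2(TPM + 1), a step tested on simulated data. Sums and correlations used two-sided exact permutation tests in Python 3.11.15; intervals are Clopper-Pearson at 95%.

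Named genes were the members, the 3 genes most correlated with each, and up to 2 genes with the highest means in each snRNP list (those under 1 TPM are given as sums). The rule's copies by family could not be drawn because no family is named, so genes of equal length were named after their values were seen, as were the genes at 0 in exercised a. The letters a to d were not treated as pairs: deviations of same-lettered libraries correlated at -0.18, -0.0049, -0.26 and -0.17. No snRNA sequence was available in the references used here.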

Additional observations from a re-analysis of the deposited data

Results flagged for a closer look

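In 34 sets of 4 libraries, a library was marked where its gap to the nearest other exceeded Dixon's 95% limit for the range of its group. Chance does this in about 1 of 20 sets of normally distributed values. That rate does not hold here, because any value above 0 is marked when the other 3 libraries are at 0. LOC120093427 stood apart in exercised d at 27.9 TPM, and LOC120096085 in sedentary b at 9.84 TPM, in each case with the other 3 libraries of the group at 0. LOC120095385 stood apart in sedentary d at 24.7 TPM, and LOC120096084 in exercised d at 2.08 TPM, likewise over 3 libraries at 0. Rnvu1-6 stood apart in exercised c at 335 TPM, where LOC120097291 was also highest.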

How the results depend on the processing

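No gene of 508 passed an adjusted p of 0.05, and 54 were at an unadjusted p under 0.05. A pseudocount of 10 TPM gave 1 gene called; leaving out single libraries gave 0 to 1 called (1 without sedentary replicate a) and 35 to 63 at the unadjusted p. That count was 408 with no filter, 22 with a mean of at least 5 TPM, and 40 with a replicate block, which called 0 and changed no call. Scaling again without the 10 most abundant RNAs gave 17 higher and 23 lower, and median-ratio scaling 24 and 14, against 43 and 11; the median log2 difference of all genes was then -0.05 and 0.16, against 0.40. The ratio of LOC120095407 was 3.54 in that first scaling, its log2 difference was 2.46 with a pseudocount of 10 TPM, and single libraries left out moved its ratio from 4.98 to 20.9. The log2 difference of LOC120098346 was -0.49, but 0.26 with a pseudocount of 10 TPM, 2.04 without sedentary b and exercised a, and -1.37 to 1.69 with single libraries left out. Relative to LOC120097291, in an alternative chosen after seeing the data, as were the equal-length classes and their shares, the ratios of LOC120098346 and LOC120096085 were 0.712 and 0.908. With no log, r turned to 0.060 for LOC120097291 with LOC120095407, -0.026 for LOC120097291 with LOC120093427, 0.45 for LOC120095407 with LOC120098346, -0.033 for LOC120095407 with LOC120093427 and -0.062 for LOC120098346 with LOC120093427; over shares r was 0.30 for LOC120095407 with LOC120098346. The difference of U1-named sums was 124 TPM, but -9.08 TPM without the 10 most abundant RNAs in the scaling and -27.1 to 324 TPM with single libraries left out. For U11-named genes, with reads in 2 libraries, it was 0.460 TPM, but -0.140 TPM without sedentary b and exercised a and -0.105 to 0.648 TPM with single libraries left out. The cause of these changes was not tested, apart from those made by leaving a library out. Depth limits LOC120093427 (51 reads) and LOC120096085 (39 reads in exercised and 18 in sedentary libraries) most; LOC120093427 has no ratio of means because all sedentary libraries are at 0.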
